A study of Mus musculus with 24 samples.

Results

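The 8 genes described here are small secreted ribonucleases of the ribonuclease A family that lie in clusters on mouse chromosome 14. They are Ear1, Ear2 and Ear10, which encode eosinophil-associated ribonucleases, Ang4, Ang5 and Ang6, which encode angiogenins, and Ang and Rnase4, a pair of neighbouring genes that share their start. They were found by name among the 45513 genes counted, and all 8 were present. The list was chosen by the difference between 9S/T-A and WT cells in small intestine (SI), so that difference is given below as values without a test.

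RNA of sorted cells was sequenced in 24 libraries, with 6 for each genotype in each of the tissues SI and colon, numbered 2 to 7 in every group. The mice were homozygous for Atoh1(WT)CreERT2 or for Atoh1(9S/T-A)CreERT2, an allele of the secretory lineage factor Atoh1 in which 9 serine or threonine residues before a proline are alanine, and they carried the R26RtdTom reporter on a C57BL/6 background. Both alleles hold the inducible Cre behind the Atoh1 coding sequence, so the controls are engineered as well, and each line was made from targeted embryonic stem cell clones. Male and female mice of 8 to 16 weeks received 3 mg of tamoxifen, and living cells carrying EpCAM, an epithelial surface protein, and tdTomato were sorted on the following day from the proximal SI, with the villus-rich fraction discarded, or from colon. The same number had the same sex in all groups (2, 5 and 7 female, 3, 4 and 6 male).

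Ribonuclease A family proteins cut RNA and are exported from the cell through a signal peptide. Several of them act against microbes. Ang4 is known as a product of Paneth cells, and of goblet cells under some conditions, while the Ear genes are named after eosinophils. Angiogenin also promotes vessel growth, and it shares its promoter region with Rnase4.

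No 2 libraries of a group held identical values, and depth is given with the methods. WT libraries 2, 3 and 4 stood apart from WT libraries 5, 6 and 7 in Rnase1, Ang and the ratio of Ang5 to Ang4, in both tissues, and their values are given singly further on. Levels are counts relative to the library total (CPM), scaled by the trimmed mean of M-values (TMM). Markers of Paneth cells, a cell type of the SI, summed to between 49490 and 102900 CPM in SI libraries and to between 338.5 and 866.1 CPM in colon. Goblet cell markers summed to at least 34500 CPM in every library. Mean Atoh1 levels were 92.3 CPM (WT) and 75.0 CPM (9S/T-A) in SI, and 102.8 CPM (WT) and 85.9 CPM (9S/T-A) in colon, with SDs of 11.04 to 15.7 CPM (n = 6 each). The mutant allele is transcribed too, so this level does not check the genotype labels. In bulk RNA, fewer cells of a type and less RNA per cell cannot be told apart, which holds for every difference below.

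Positions are on GRCm38, chromosome 14, as in the count files. In the proximal cluster lie Ear1 (ENSMUSG00000072601, 43818765 to 43875517, minus strand), Ear10 (ENSMUSG00000090166, 43922720 to 43923559, minus strand), Ang5 (ENSMUSG00000053961, 43957069 to 43963080, plus strand), Ang6 (ENSMUSG00000072598, 44001664 to 44006418, minus strand) and Ear2 (ENSMUSG00000072596, 44102654 to 44103534, plus strand). In the distal cluster lie Ang (ENSMUSG00000072115, 51091077 to 51102007, plus strand), Rnase4 (ENSMUSG00000021876, 51091077 to 51106151, plus strand) and Ang4 (ENSMUSG00000060615, 51763878 to 51773590, minus strand). All are annotated as protein coding.

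The sequences before the start sites are shown because those of the Ear genes are nearly alike and those of Ang5 and Ang6 are the same. They are from RefSeq on GRCm38.p6, cover the 250 bases before the start, and are written 5′ to 3′ along the gene. Capitals mark the E-box CANNTG, the core that basic helix-loop-helix factors such as Atoh1 bind, which reads the same on both strands. The Ear2 window is chr14:44102404-44102653, that of Ear10 chr14:43923597-43923846, that of Ang4 chr14:51773591-51773840 and that of Ang5 chr14:43956819-43957068.
Ear2: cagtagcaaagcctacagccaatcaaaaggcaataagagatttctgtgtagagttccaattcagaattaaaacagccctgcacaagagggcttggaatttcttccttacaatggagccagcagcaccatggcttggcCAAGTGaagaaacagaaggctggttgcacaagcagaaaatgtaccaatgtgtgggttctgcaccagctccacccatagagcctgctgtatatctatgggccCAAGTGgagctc
Ear10: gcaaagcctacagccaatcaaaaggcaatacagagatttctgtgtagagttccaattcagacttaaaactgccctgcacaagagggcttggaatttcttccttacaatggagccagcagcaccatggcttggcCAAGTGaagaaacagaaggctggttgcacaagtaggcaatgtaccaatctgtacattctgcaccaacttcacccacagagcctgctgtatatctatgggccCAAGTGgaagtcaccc
Ang4: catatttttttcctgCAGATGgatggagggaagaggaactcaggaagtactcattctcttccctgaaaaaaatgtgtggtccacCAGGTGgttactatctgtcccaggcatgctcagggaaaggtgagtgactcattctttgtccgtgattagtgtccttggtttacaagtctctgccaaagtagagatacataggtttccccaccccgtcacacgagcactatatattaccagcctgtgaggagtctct
Ang5: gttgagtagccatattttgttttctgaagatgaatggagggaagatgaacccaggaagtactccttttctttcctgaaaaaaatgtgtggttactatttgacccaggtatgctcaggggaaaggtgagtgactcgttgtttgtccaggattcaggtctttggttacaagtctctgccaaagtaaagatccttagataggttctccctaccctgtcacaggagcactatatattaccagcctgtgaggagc
The Ear1 window (chr14:43819640-43819889) was identical to that of Ear2 at 246 of 248 aligned bases, and Ear10 matched Ear1 at 93.9% and Ear2 at 94.3% of aligned bases. The Ear1 window precedes the RefSeq start, which lies inside the gene as counted, since that reaches to 43875517 on the minus strand. The counted span also covers the pseudogene Ear-ps9 (43874875 to 43875334). The Ang6 window (chr14:44006419-44006668) was identical to that of Ang5 at all 250 bases, and Ang4 matched both at 89.3%. Each of the 3 Ear windows held 2 E-boxes, both CAAGTG. The Ang4 window held CAGATG and CAGGTG. No E-box was found in the shared window of Ang5 and Ang6 or in the shared start of Ang and Rnase4, whereas the second start of Rnase4 held CAGCTG and CAACTG. An E-box was present in 66.2% of all 32851 promoter windows of this length, so a match is a description and not a binding site.

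The coding sequences bear on how far single genes can be told apart. Ear1 and Ear2 were identical at 95.7% of aligned coding bases, Ear1 and Ear10 at 95.1%, and Ear2 and Ear10 at 97.0%, with a shared run of 185 bases. Of all 50-base windows in the annotated transcripts, the length of a read, 57.4% of those of Ear1, 41.5% of Ear2 and 39.9% of Ear10 also occurred in another Ear gene or pseudogene. The division of reads among the 3 Ear genes is therefore uncertain, while their sum is less so. Ang4, Ang5 and Ang6 were 86.8% to 90.8% identical to each other, but only 4.7% of the windows of Ang4 and 4.9% of those of Ang5 occurred in another gene, and 0% of those of Ang6, whose annotated transcripts are shorter than the exons counted. Ang shared 651 of its 1273 exon bases with Rnase4, and reads there could not be given to either gene, so both levels are those of the remaining exon bases.

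The Ear genes were transcribed in WT SI, and no library of another group held more than 2 reads of any of them. Ear1 had 166 to 581 counts in the WT SI libraries, Ear2 249 to 825 and Ear10 179 to 710. In 9S/T-A SI, Ear1 had 0 counts in all 6 libraries, Ear2 had 1 count in 2 libraries and Ear10 had 1 count in 1 library. As CPM, WT SI held 5.30 (lowest), 5.93 (median) and 12.7 (highest) of Ear1. Ear2 was at 6.42, 9.40 and 18.1 CPM there, and Ear10 at 4.62, 7.96 and 15.6 CPM. Libraries 5 and 6 were the highest for each of the 3 genes, and all WT SI libraries lay above all 9S/T-A SI libraries.

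Summed over the 6 libraries and scaled, Ear1 was at least 673.2-fold higher in WT SI than in 9S/T-A SI, taking a floor of 3 counts over the group that had none. The ratio was 1489 for Ear2 (95% counting interval 411.8 to 12300) and 2396 for Ear10 (429.6 to 94680). These intervals cover counting error only. The fitted log2 fold changes of -11.33 for Ear1, -10.03 for Ear2 and -10.37 for Ear10 depend on how a count of 0 is treated and are no better estimate than these bounds.

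The 3 Ear genes moved together among the WT SI libraries. For every 100 Ear2 reads there were 58.7 to 88.4 Ear1 reads (median 65.9) and 71.9 to 87.9 Ear10 reads (median 80.4). The part of shared sequence in this was not tested. The summed Ear level was 27.9 ± 11.1 CPM in WT SI and at most 0.0313 CPM in any library of the other groups.

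Ear genes are named for eosinophils, so markers of that cell are given beside them, most of which were near 0 in every group. Epx and Prg3, which encode granule proteins of that cell, had 0 counts in all 12 SI libraries. Prg2 reached at most 4 counts in a WT SI library, and Siglecf alone passed 1 CPM, at a mean of 2.51 CPM in WT and 2.07 CPM in mutant SI. All 6 listed eosinophil genes summed to 1.67 to 6.39 CPM in WT SI and to 0.472 to 7.60 CPM in 9S/T-A SI, so the groups overlapped. The sum of the 6 macrophage and monocyte genes did differ, at 10.3 to 13.6 CPM in WT SI. In 9S/T-A SI it was 7.93 to 9.78 CPM, mostly from lower Cd14 and Itgam. The means of Mrc1 (0.511 CPM in WT, 0.569 CPM in 9S/T-A) and Adgre1 (0.0245 and 0.0464 CPM) were higher in 9S/T-A SI. Cd68 hardly moved (1.20 and 1.14 CPM), and Adgre1 and Csf1r averaged at most 0.0594 CPM in every group. The sum of the 6 genes was 30.6 to 46.9 CPM in the colon libraries, where the Ear genes were near 0. Most of that sum was Cd14, whose colon means were 36.4 (WT) and 32.7 CPM (mutant). It therefore mainly follows Cd14 and is not read as a level of such cells. The part of eosinophils, macrophages or monocytes in the Ear levels was not tested.

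Ang6 followed the Ear genes, between which it lies. It had 46 to 105 counts in WT SI, or 1.24 (lowest), 1.47 (median) and 2.30 CPM (highest). In 9S/T-A SI it had 3 counts in library 4, 1 in library 2 and 0 in the remaining 4. The ratio of WT SI to 9S/T-A SI was 105.8 (95% counting interval 41.0 to 390.3). Ang6 was also near the detection limit in colon, with at most 2 counts in a WT library and 0 in all 9S/T-A libraries.

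Ang5, whose promoter window is the same as that of Ang6, remained transcribed in all groups. In WT SI it was at 27.6 (lowest), 52.1 (median) and 78.5 CPM (highest), and in 9S/T-A SI at 11.1, 14.5 and 16.6 CPM. The groups did not overlap, and the fitted log2 fold change was -1.94 (SE 0.208). In colon it varied more, from 3.49 to 24.4 CPM in WT, and from 1.85 to 29.6 CPM in 9S/T-A.

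Ang4, the antimicrobial angiogenin of Paneth cells, had by far the most reads of the angiogenins. WT SI held 732.2 (lowest), 1543 (median) and 1798 CPM (highest), and 9S/T-A SI 528.7, 685.2 and 766.5 CPM. The groups met only through WT library 4, which at 732.2 CPM lay below the 766.5 and 736.7 CPM of 9S/T-A libraries 2 and 4. The fitted log2 fold change was -1.11 (SE 0.188). Beside it, the 8 Paneth cell markers summed to 60920 to 102900 CPM in WT SI and to 49490 to 77570 CPM in 9S/T-A SI. Of these markers Defa22 alone was higher in 9S/T-A SI (log2 fold change 0.90), and the others ranged from -4.64 (Mptx2) to -0.15 (Lyz1). Goblet cell markers summed to 311800 to 440100 CPM in WT SI and to 317100 to 502900 CPM in 9S/T-A SI. The part of either cell type in the Ang4 difference was not tested.

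Ang and Rnase4 moved the other way in SI. Ang was at 28.0 (lowest), 36.9 (median) and 47.5 CPM (highest) in WT SI and at 57.5, 67.6 and 77.0 CPM in 9S/T-A SI, without overlap (log2 fold change 0.83, SE 0.132). Rnase4 was at 269.7, 311.9 and 413.3 CPM in WT SI and at 373.4, 445.4 and 481.1 CPM in 9S/T-A SI, where the lowest mutant library lay inside the WT range (log2 fold change 0.43, SE 0.101). In all, 5 members lay lower and 1 higher in 9S/T-A SI without overlap, against 2.08% of all genes tested in SI in either direction, and since this contrast chose the members nothing is read from that share.

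**Figure D1:**
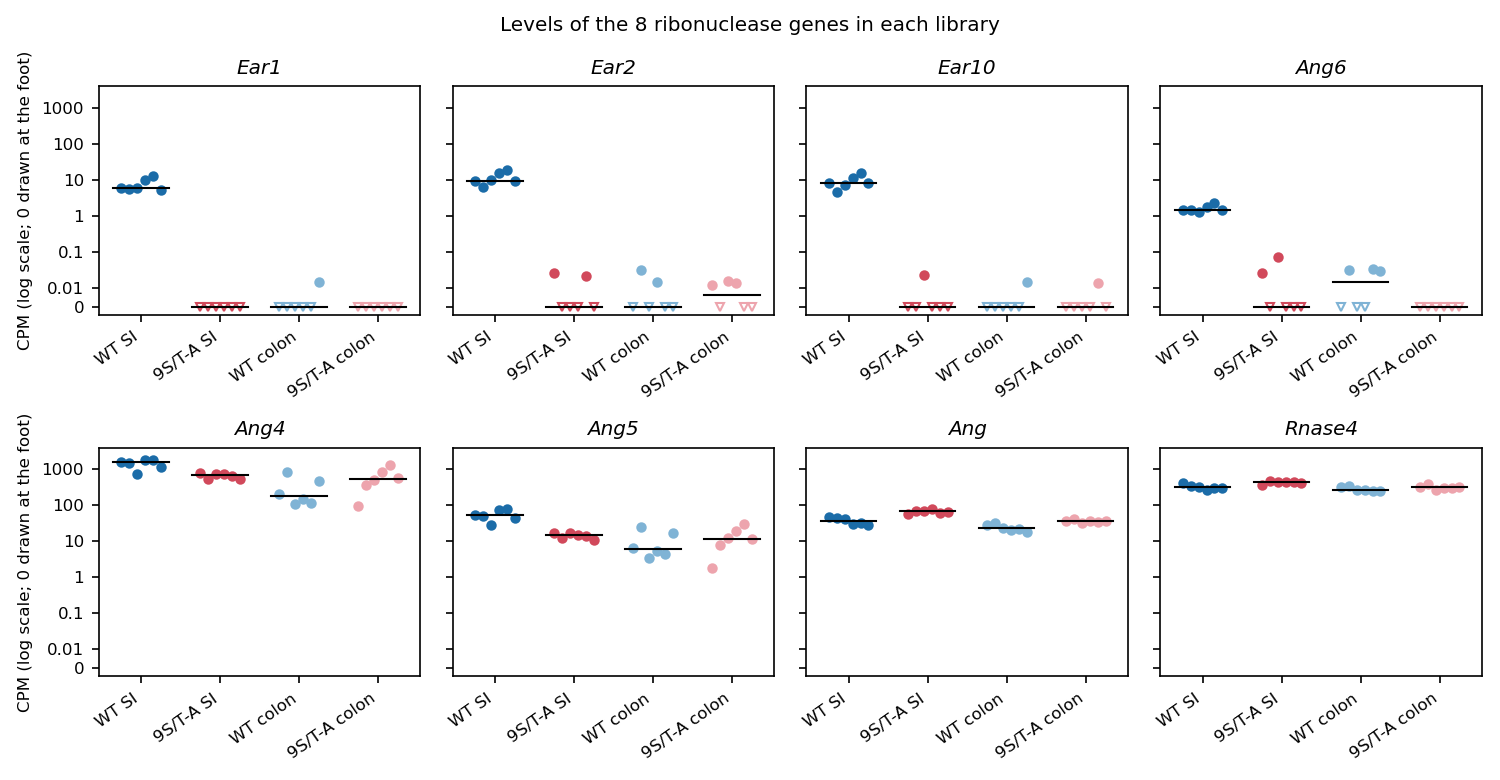
CPM of each gene (log axis, with libraries at 0 drawn as open triangles at the foot) in the 6 libraries of each group, with a line at the median. Ear1, Ear2, Ear10 and Ang6 are above 1 CPM in all WT SI libraries and below 0.1 CPM in all others, while Ang4, Ang5, Ang and Rnase4 are present in all 24.

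Per kilobase of counted exon, taking for Ang and Rnase4 the 622 and 1345 exon bases that each held alone, Ang4 was the highest member in WT SI at a median of 2176 CPM per kb. Rnase4 followed at 231.9 CPM per kb, and its range overlapped none of the others. Ang5 at 73.5 and Ang at 59.3 CPM per kb overlapped each other and no other member. Ear2 at 13.1, Ear10 at 11.7 and Ear1 at 8.12 CPM per kb overlapped each other. Ang6 was the lowest at 2.06 CPM per kb and overlapped none of them. In WT colon the median was 251.3 CPM per kb for Ang4 and 199.1 for Rnase4, and their ranges overlapped.

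Added up, the 8 genes came to 1862 ± 436 CPM in WT SI (lowest 1148, median 2041, highest 2259). In 9S/T-A SI the sum was 1176 ± 95.3 CPM. In colon it was 634.6 ± 329.7 CPM for WT and 991.6 ± 426.8 CPM for 9S/T-A (SD, n = 6 each). Ang4 made up 63.8% to 80.9% of the sum in WT SI and 49.2% to 63.1% in 9S/T-A SI. The Ear genes were 0.853% to 2.05% of the sum in WT SI, so their absence elsewhere is hardly visible in it. Ang4, Ang5 and Ang6 together were at 1472 ± 428.4 CPM (WT) and 672.1 ± 103.6 CPM (9S/T-A) in SI, while Ang and Rnase4 together were at 361.7 ± 57.7 and 504.0 ± 41.7 CPM. In colon, Ang4 was between 27.6% and 67.9% of the sum in WT and between 20.6% and 79.0% in 9S/T-A, which is the widest spread of any group. Scaled by plain totals in place of TMM, the mean was 1494 CPM in WT SI and 820.1 CPM in WT colon, so SI stayed higher. In 9S/T-A it was 877.1 CPM in SI and 1270 CPM in colon, so the direction between tissues turned with the scaling.

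**Figure D2:**
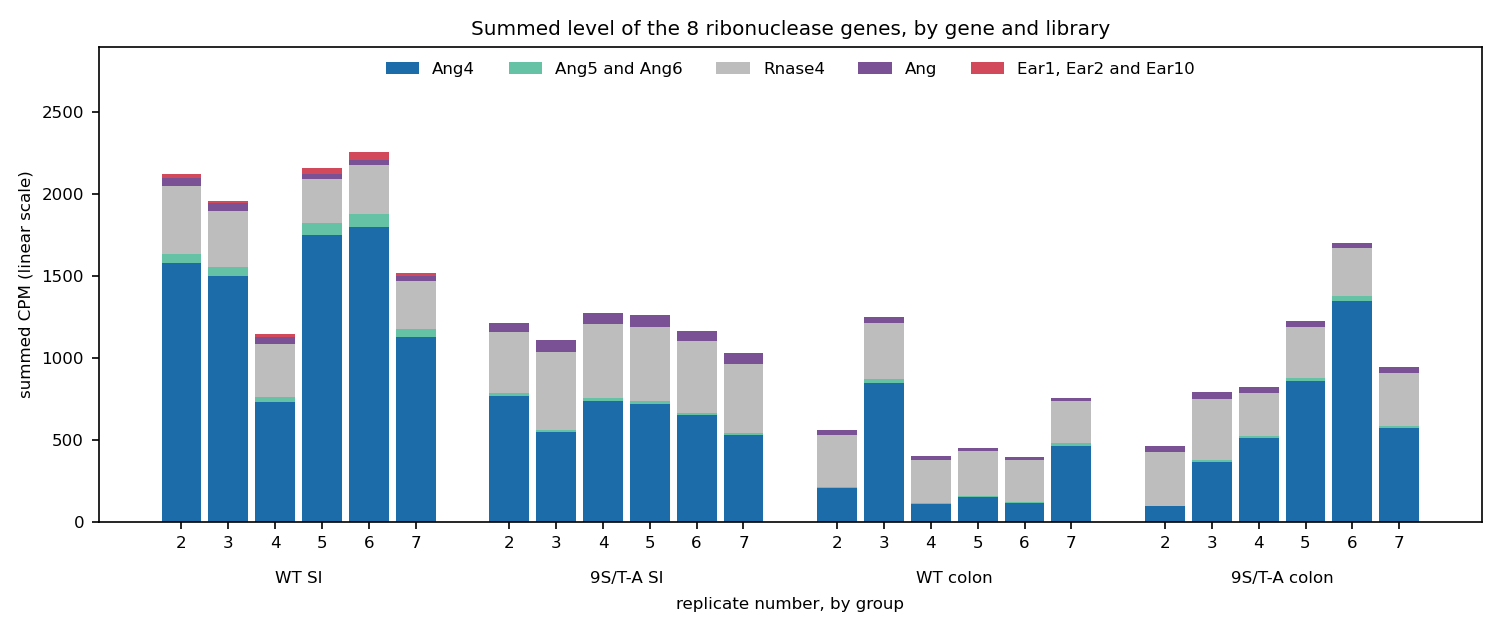
Summed CPM (linear axis) of the 8 genes in each library, stacked as Ang4, Ang5 with Ang6, Rnase4, Ang and the 3 Ear genes and ordered by group and replicate number. Ang4 makes up most of the height in SI, and the colon bars range from 396.1 to 1703 CPM with the level of Ang4.

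The difference between genotypes was tested in colon, whose libraries did not enter the choice of the genes. Of the 8 members, 4 passed the filter on low counts (Ang, Ang4, Ang5 and Rnase4), and the Ear genes and Ang6 had too few reads to test. By edgeR's quasi-likelihood test, 0 of the 4 were called at an adjusted p under 0.05, where 0.318% of all genes tested were called. At an unadjusted p under 0.05 there was 1 (8.81% of all genes tested), and DESeq2 also called 1 (1.56% of all genes tested), in both cases Ang.

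Ang was at 18.5 (lowest), 22.6 (median) and 32.8 CPM (highest) in WT colon and at 31.8, 35.5 and 41.0 CPM in 9S/T-A colon. Only WT library 3 reached into the mutant range. The log2 fold change was 0.58 (SE 0.115, adjusted p = 0.0505), just short of the threshold, in the same direction as the values in SI. Without WT colon library 3 it was 0.69 (adjusted p = 0.00958), the only library whose omission led to a call (adjusted p from 0.00958 to 0.128 over the 12 omissions). Over the 7 other settings the adjusted p ran from 5.2e-04 with the DESeq2 Wald test to 0.0813 with plain totals, and 5 of the 7 called it. Among these was the edgeR fit with the replicate number as a block (0.60, SE 0.082, adjusted p = 0.005045).

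The remaining 3 genes showed no detectable difference between genotypes in colon. Rnase4 was at 255.2 to 343.4 CPM in WT and 265.0 to 376.9 CPM in 9S/T-A (log2 fold change 0.18, SE 0.097, adjusted p = 0.671). Ang4 ranged from 110.3 to 848.4 CPM in WT, with a median of 178.1, and from 95.3 to 1346 CPM in 9S/T-A, with a median of 542.1. Its log2 fold change of 1.01 had an SE of 0.597 (adjusted p = 0.713) and was not detectable against the spread of the libraries. Ang5 varied with it (log2 fold change 0.44, SE 0.58, adjusted p = 0.986). By CPM, 0 of the 8 members were without overlap between the colon genotypes, compared with 0.906% of all genes tested.

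Ang4 and Ang5 rose and fell together from library to library, and their ratio was far steadier than either level. This ratio and the next were formed after the values had been seen and are given without a test. For every 100 Ang4 reads there were 2.87 (lowest), 3.38 (median) and 3.94 (highest) Ang5 reads in WT colon and 1.95, 2.16 and 2.36 in 9S/T-A colon, without overlap. In SI the same ratio was 3.32, 3.89 and 4.36 in WT and 2.11, 2.15 and 2.26 in 9S/T-A, again without overlap. The log2 ratio was lower by 0.66 in 9S/T-A colon (log2 difference -0.66, SE 0.079), although neither gene's own level differed detectably there. All 12 9S/T-A libraries of both tissues thus lay between 1.95 and 2.36, and all 12 WT libraries between 2.87 and 4.36.

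The ratio of Ang to Rnase4, which start together, also separated the genotypes. There were 7.24 (lowest), 8.70 (median) and 9.54 (highest) Ang reads per 100 Rnase4 reads in WT colon and 10.7, 11.1 and 12.1 in 9S/T-A colon, a log2 difference of 0.43 (SE 0.067). In SI there were 9.50, 11.5 and 13.2 in WT and 14.2, 15.4 and 17.0 in 9S/T-A. Neither pair of groups overlapped. A ratio of this kind does not depend on the scaling between libraries, and it shows that the members of a pair changed unequally, not which of them changed.

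The tissues were then compared within each genotype. These contrasts share their SI libraries with the one that chose the genes, so they are not independent of that choice. All 8 members passed the filter in WT. Ear1, Ear2, Ear10 and Ang6 passed through their WT SI reads alone, which fixed the direction, so they are given as ratios without a test. Of the remaining 4, edgeR called 3 lower in colon (Ang, Ang4 and Ang5), where 30.4% of all genes tested were called lower. The ratio of summed scaled counts in WT SI to those in WT colon was 3091 for Ear1 (95% counting interval 554.2 to 122200), 1519 for Ear2 (519.4 to 7372), 3667 for Ear10 (657.6 to 144900) and 108.0 for Ang6 (49.2 to 296.0). WT colon held 1 read of Ear1, 3 of Ear2, 1 of Ear10 and 6 of Ang6 in all 6 libraries together.

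Among the genes transcribed in both tissues, Ang5 was lower in WT colon (log2 difference -2.45, SE 0.444, adjusted p = 1.8e-04), as was Ang4 (log2 difference -2.20, SE 0.47, adjusted p = 7.6e-04). WT colon library 3, at 848.4 CPM of Ang4, alone exceeded the lowest WT SI library. Ang was lower as well, at -0.66 (SE 0.157, adjusted p = 0.0017). Rnase4 was at -0.22 (SE 0.113, adjusted p = 0.0985), and it was called lower when the replicate number was a block, at -0.22 (SE 0.075, adjusted p = 0.0222), or when WT colon library 3 was left out (adjusted p = 0.0401). With plain totals in place of TMM, which move the median of all genes by 0.74 on the log2 scale, the log2 fold change of Ang became 0.06 and that of Rnase4 0.50, while the other 6 members kept their direction.

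In 9S/T-A cells 4 members passed the filter, and 2 were called lower in colon, against 28% of all genes tested. For Ang the log2 difference was -0.93 (SE 0.086, adjusted p = 2.0e-07), without overlap between tissues. For Rnase4 it was -0.49 (SE 0.099, adjusted p = 5.4e-04). Ang4 did not differ detectably between the tissues of the mutant (log2 fold change -0.10, SE 0.403, adjusted p = 0.839), nor did Ang5 (-0.09, SE 0.415, adjusted p = 0.873). Both signs turned when 9S/T-A colon library 2 or 3 was left out. Under plain totals, which move the median of all genes by 0.85, Ang4 (0.71), Ang5 (0.72) and Rnase4 (0.32) turned positive, Rnase4 was then called higher in colon, and Ang (-0.12) was no longer called. Whether the tissue difference depends on genotype was not tested, since that difference contains the SI values that chose the genes.

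**Figure D3:**
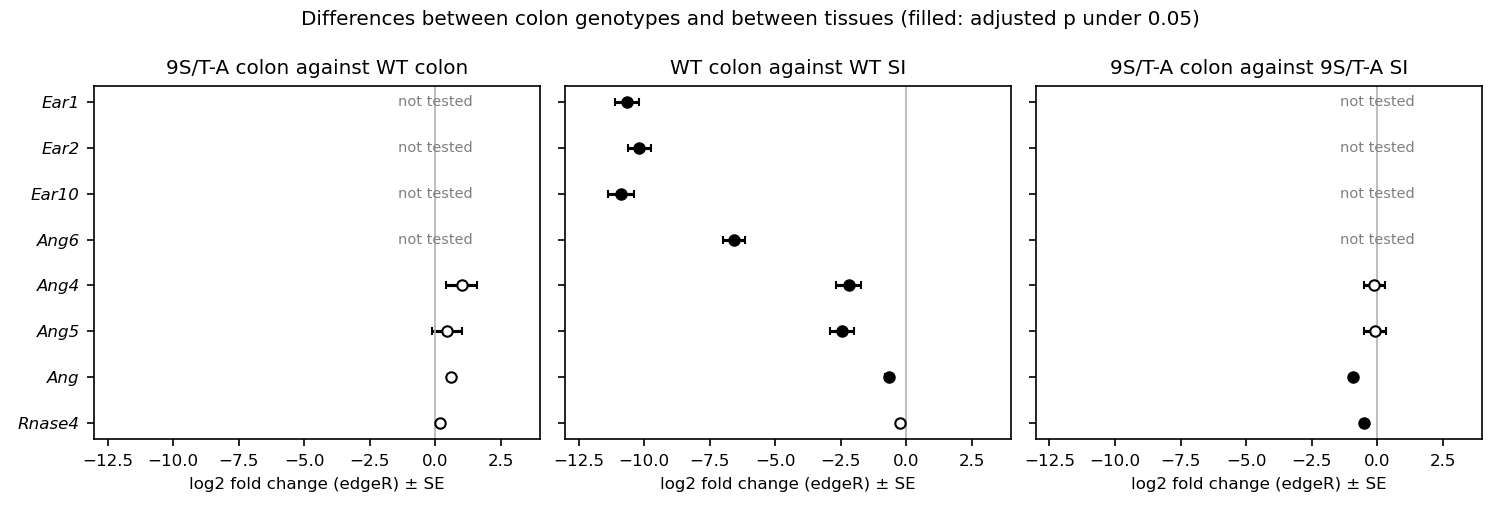
Log2 fold change of each gene with its SE for 9S/T-A against WT in colon and for colon against SI in each genotype, with filled points at an adjusted p under 0.05. In WT all points but Rnase4 are filled and lie left of 0. Ear1, Ear2, Ear10 and Ang6 passed the filter through WT SI alone, so their filling is not read as a test result. In the colon comparison of genotypes no point is filled.

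The other genes of the family were counted in the same libraries. Of 24 further family genes and pseudogenes in the annotation, 12 had 0 counts in all libraries, among them Rnase9, Rnase10, Rnase11, Rnase2a and Rnase2b. In SI, 5 passed the filter. Of these, 4 passed through their WT SI reads alone, which fixed the direction, so they are given as values only. Ear6, a further eosinophil-associated ribonuclease near Ang4, was at 0.737 ± 0.426 CPM in WT SI and 0 in all 9S/T-A SI libraries. The pseudogenes Ear-ps2 at 4.72 ± 1.98 CPM, Ear-ps9 at 1.16 ± 0.387 CPM and Ang-ps3 at 0.412 ± 0.15 CPM in WT SI had at most 1 count in any 9S/T-A SI library. Ear-ps2 and Ear-ps9 share read-length windows with the Ear genes, so their counts are uncertain in the same way. In WT colon, Ear6 had at most 1 count in a library and the 3 pseudogenes had 0 in all.

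Rnase1, the pancreatic-type ribonuclease that lies between Rnase4 and Ang4, set libraries of the WT group apart from each other. In WT SI it was at 72.8, 68.8 and 70.2 CPM in libraries 2, 3 and 4, and at 0.932, 1.12 and 0.862 CPM in libraries 5, 6 and 7. In 9S/T-A SI all 6 libraries were high, from 89.9 to 152.2 CPM. The gene was rare in colon, yet the numbers fell in the same order, with 0.285, 0.329 and 0.167 CPM in WT libraries 2, 3 and 4 and 0.0867, 0.115 and 0.0727 CPM in libraries 5, 6 and 7. The 9S/T-A colon libraries were at 0.331 to 0.706 CPM (log2 fold change 1.65, SE 0.362, adjusted p = 0.0806).

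Gm26782, annotated as an antisense transcript and lying at lower coordinates than Rnase4, showed the same order. In WT SI it was at 1.47, 1.37 and 1.43 CPM in libraries 2, 3 and 4 and at 0.412, 0.548 and 0.926 CPM in libraries 5, 6 and 7, against 2.26 to 2.78 CPM in 9S/T-A SI. In WT colon it was at 1.72, 1.28 and 1.26 CPM, then 0.549, 0.378 and 0.945 CPM, against 1.84 to 3.06 CPM in 9S/T-A colon. Its log2 fold change between genotypes was 1.28 in SI and 1.29 in colon (adjusted p = 0.0959 in colon).

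Some members divided the WT libraries along the same numbers. The share of all genes that do so is not given, so the division cannot be called particular to these genes. Ang was at 47.5, 44.6 and 42.5 CPM in WT SI libraries 2, 3 and 4 and at 31.0, 31.3 and 28.0 CPM in libraries 5, 6 and 7, with the 9S/T-A libraries above both. In WT colon Ang was at 28.0, 32.8 and 23.3 CPM, then 21.0, 21.95 and 18.5 CPM. Rnase4 divided in SI (413.3, 344.3 and 321.9 CPM, then 269.7, 301.8 and 294.3 CPM) but not in colon. The Ang5 reads per 100 Ang4 reads were 3.32, 3.43 and 3.76 in WT SI libraries 2, 3 and 4 and 4.19, 4.36 and 4.02 in libraries 5, 6 and 7, with the 9S/T-A libraries below both. In WT colon they were 3.24, 2.87 and 3.17, then 3.52, 3.94 and 3.73. In each of the series of Rnase1, Gm26782, Ang and the Ang5 to Ang4 ratio, libraries 2, 3 and 4 lay between the 9S/T-A libraries and libraries 5, 6 and 7, except that Ang in WT colon library 3 reached into the 9S/T-A range. Of the genes that were lower in 9S/T-A SI, Klhl33, a neighbour of the distal cluster, divided in WT SI (0.432, 0.335 and 0.520 CPM, then 1.15, 0.789 and 1.18 CPM), as did Ear6 (0.552, 0.361 and 0.339 CPM, then 0.932, 1.47 and 0.766 CPM). Ang-ps3 also did (0.312, 0.310 and 0.226 CPM, then 0.499, 0.614 and 0.511 CPM), and so did ENSMUSG00000091089 (0.6246, 0.284 and 0.475 CPM, then 1.301, 0.679 and 0.862 CPM). Ang4, Ang5, Ear1, Ear2, Ear10 and Ang6 did not divide in this way in WT SI. Ang6 (1.465, 1.47 and 1.244 CPM, then 1.777, 2.301 and 1.469 CPM) and Ear10 (7.999, 4.618 and 7.034 CPM, then 11.21, 15.56 and 7.918 CPM) fell just short of it, each through library 7.

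Both sets of numbers hold female and male mice. No label divides the WT libraries at this point, so these are single values and not groups of the study, and no test was made between them. The WT mean and SD of Ang, Rnase1 and the Ang5 to Ang4 ratio cover both levels. The strain origin of this stretch of chromosome 14 in the single mice was not examined, and a difference between the lines there cannot be told apart from an effect of the 9S/T-A allele for any gene of these clusters. The reason for the division was not tested.

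**Figure D4:**
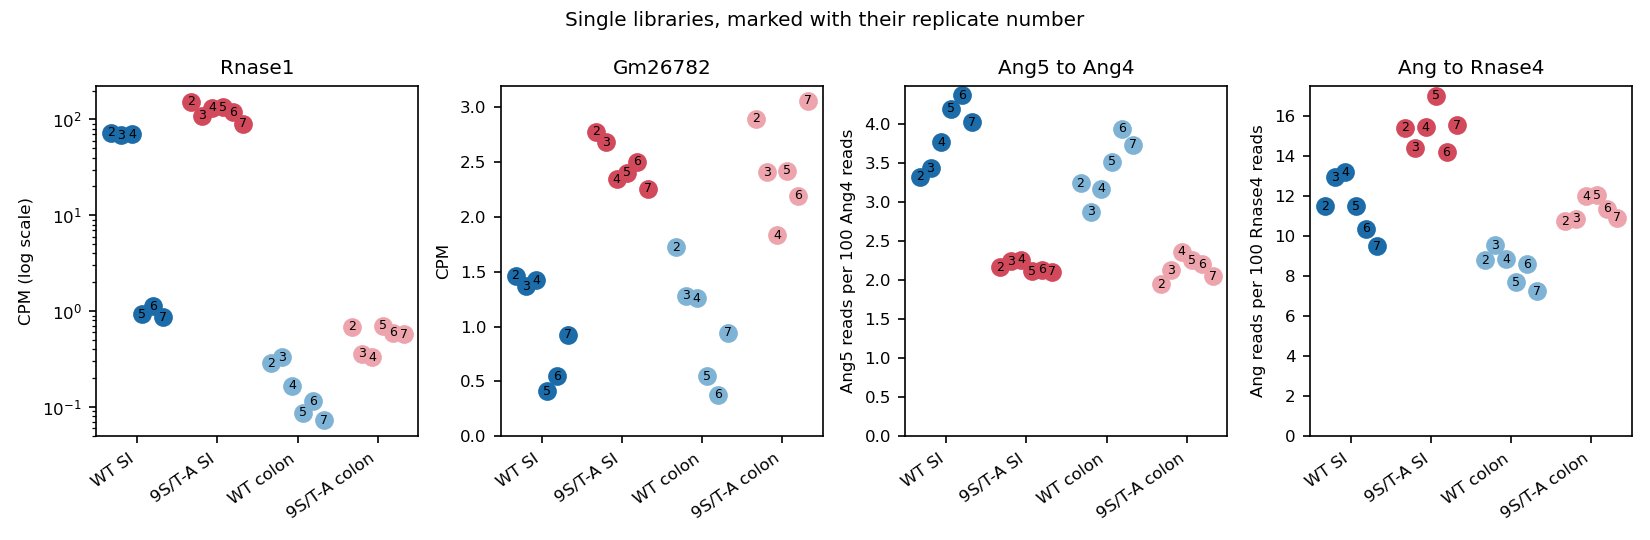
Rnase1 (CPM, log axis), Gm26782 (CPM), Ang5 reads per 100 Ang4 reads and Ang reads per 100 Rnase4 reads in each library, with the replicate number written on each point. WT libraries 2, 3 and 4 lie nearer to the 9S/T-A libraries than WT libraries 5, 6 and 7 do, in both tissues, although libraries 2 (11.5) and 5 (11.49) hardly differ in the ratio of Ang to Rnase4 in SI.

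Neighbours outside the family were mixed. Among the genes within 250000 bases of the proximal cluster, 25 were not of the family and 2 passed the filter. Gm7324, which lies before Ear1, was at 12.0 ± 1.54 CPM (WT) and 10.1 ± 1.18 CPM (9S/T-A) in SI, and so was present in both. Gm8113, which lies beside Ear10, was at 9.98 ± 2.46 and 7.21 ± 1.35 CPM. Around the distal cluster, 14 of 38 other genes passed in SI, with a median log2 fold change of -0.02 and a range from -6.04 to 1.28. The lowest values were those of an unnamed gene, ENSMUSG00000091089, at 0.704 CPM (WT) and 0.00874 CPM (9S/T-A) in SI, and of Klhl33, a gene with kelch repeats, at 0.735 and 0.0908 CPM. Both failed the filter in colon, where ENSMUSG00000091089 was at 0.317 CPM (WT) and 0.00687 CPM (9S/T-A) and Klhl33 at 0.255 and 0.0337 CPM. Of the 12 that passed there, edgeR called 0.

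Known partners of the proteins were measured too. Rnh1, the ribonuclease inhibitor of the cytosol, was at 270.2 ± 24.1 CPM (WT) and 298.9 ± 33.4 CPM (9S/T-A) in SI. Its log2 fold change between colon genotypes was 0.07 (SE 0.087, adjusted p = 0.976). Plxnb2, a receptor for angiogenin, was at 464.7 ± 41.6 and 500.3 ± 47.9 CPM in SI, with 0.09 between colon genotypes (SE 0.103, adjusted p = 0.967). Both were called lower in colon by edgeR in WT cells, as were 30.4% of all genes tested. The log2 difference was -0.90 for Rnh1 (SE 0.089, adjusted p = 3.2e-07) and -0.58 for Plxnb2 (SE 0.092, adjusted p = 4.9e-05). These values rest on TMM, and plain totals move the median of all genes by 0.74 in this contrast. In mean raw counts, Rnh1 was at 11110 in WT SI and 9734 in WT colon, and Plxnb2 at 19050 and 20980.

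Over the 24 libraries, the genes closest in pattern to the Ear sum were family pseudogenes. The measure was Pearson's r of log2(CPM + 1) among 17945 genes, a description without a test, since libraries of a group are alike. It was 0.996 for Ear-ps2, 0.992 for Ear-ps9 and 0.97 for Ang-ps3. Each had at most 1 count in any library outside WT SI, where the Ear genes were near 0 too, so a high r was largely set by that. Ear-ps2 and Ear-ps9 also share read-length windows with the Ear genes. For the sum of Ang4, Ang5 and Ang6 the closest were St3gal4, a sialyltransferase, at 0.841, Dnah8, a dynein heavy chain, at 0.773, and Gadd45g, a stress-induced gene, at 0.752. For Ang and Rnase4 together they were Slc7a7, an amino acid transporter also on chromosome 14, at 0.859, Trappc6b, a vesicle trafficking subunit, at 0.854, and Osbp2, an oxysterol-binding protein, at 0.852.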

How the data were processed

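Sorted cells of 24 mouse libraries were sequenced with single-end stranded reads. Per the labels and the paper, the authors aligned them to GRCm38.p3 with TopHat2 2.1.1 and counted them per gene and by strand with featureCounts of Subread 1.5.2. The deposited values are raw counts without normalization. Only primary alignments were counted, so a read with several positions was counted at 1 of them, and a read over 2 genes at neither.

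The 8 genes and the lists of other genes were chosen with earlier results of these data known. Symbols came from GENCODE M21 and named 98.15% of 45513 genes. Counts were fitted with edgeR 4.0.16 in R 4.3.3 (filterByExpr, TMM, quasi-likelihood test, two-sided), using the 12 libraries of each contrast and adjusting over all genes tested (Benjamini-Hochberg, threshold 0.05). CPM were scaled by TMM factors over all 24 libraries. No p is given where the contrast chose the genes. Labels do not say that libraries are separate cultures or mice beyond their numbers, so p-values measure the spread between libraries. Named beside the members were the other family genes that passed the filter, Rnh1, Plxnb2, Atoh1, the 5 neighbours of each cluster with the largest SI difference, and the 3 genes closest in pattern to each sum.

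Same-numbered libraries deviated together between tissues (each of the 6 correlations at least 0.168 in WT and 0.159 in 9S/T-A), so blocked values are given beside the tissue results they change. Between genotypes the lowest correlation was -0.095 in SI (mean 0.192) and 0.02 in colon (mean 0.412, with 5 of 6 over 0.1). The colon mean was above those between tissues (0.289 in WT and 0.366 in 9S/T-A). As the lowest lay under the limit of 0.1, the numbers were not taken as pairs between genotypes. Alternatives were DESeq2 1.42.0, its size factors, plain totals, other filters, the block, all libraries in 1 fit and each library left out. Depth was 35967875 to 65796932 counts per library, and intervals (95%, exact) cover counting error only. Sequence identities were computed with Biopython 1.88.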

Additional observations from a re-analysis of the deposited data

Results flagged for a closer look

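Of 80 sets of 6 values examined for a library far from the others, 1 held such a library, and chance alone gives about 1 in 20. Plxnb2 was at 232.7 CPM in 9S/T-A colon library 7, against 338.2 CPM in the next lowest library of that group, and this gap was 0.68 of the group's whole range, above the limit for 6 values. Genes with a mean under 10 counts in a group were not examined there.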

How the results depend on the processing

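In colon, 1 member (Ang) was called between genotypes with DESeq2, with its size factors in edgeR, with no filter, with the replicate block and with all 24 libraries in 1 fit, against 0 in the reported fit, with plain totals and with a mean of at least 10 counts. Leaving out single libraries gave 0 to 1 there, and always 2 in the 9S/T-A tissue contrast. In the WT tissue contrast Ang, Ang4 and Ang5 were called lower in colon in all 12 omissions, and Rnase4 only without WT colon library 3. The reported fit called 30.4% of all genes tested lower in that contrast. Ear1, Ear2, Ear10 and Ang6 passed its filter through WT SI alone and are not counted. The replicate block also called Rnase4 in the WT tissue contrast, and it called 2 members in that of 9S/T-A. In colon the block gave Ang 0.60 (adjusted p = 0.00505), but the numbers share no stated pairing, and 8 of 12 libraries correlated best with their own number. Plain totals left 1 member called in the 9S/T-A tissue contrast, and turned Ang (0.057) and Rnase4 (0.50) in WT and Ang4 (0.71), Ang5 (0.72) and Rnase4 (0.32) in 9S/T-A. The cause of these shifts was not tested. Over the omissions of single libraries Ang4 in the 9S/T-A tissue contrast ranged from -0.482 to 0.125 and Ang5 from -0.465 to 0.149. All 24 libraries in 1 fit called 3 members lower there, where all 8 passed the filter and 5005 of 17953 genes were called lower. Ang and Rnase4 were among them. The further call fell among Ear1, Ear2, Ear10 and Ang6. These passed the filter through WT SI reads, outside the contrast, so that call is not read as a result. Over all genes, 54 were called between colon genotypes, against 254 with DESeq2, 385 with the replicate block, 90 with no filter and 103 with all 24 libraries. In SI, leaving out single libraries moved the log2 fold change of Ear10 between -11.58 and -10.14 and that of Ang6 between -7.74 and -6.19, both with few reads in 9S/T-A SI; the 7 other alternatives moved no member by more than the spread between libraries. The sum of the 8 genes was 2308 CPM per kilobase of all counted exon bases in WT SI, and by plain totals it was 877.1 CPM in 9S/T-A SI.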
